A study of Macaca mulatta with 2 samples.

Results

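The genes described here are 10 markers and secreted products of the maturing Sertoli cell: CLU, SHBG, DEFB119, PRND, LCN2, CITED1, CEBPB, GATA1, TSPAN8 and AQP4. They are the non-control probes of the array whose gene name is one of these 10 symbols, which gave 15 probes among 34973 probes for 21495 named genes. The arrays compared 2 primary Sertoli cell cultures from rhesus macaque (Macaca mulatta) testis. The pubertal culture came from juvenile males aged 18 to 22 months that had received GnRH, the hypothalamic hormone that drives LH and FSH release, at 0.15 µg per min for 2 min every 3 h over 4 to 5 weeks. The infant culture came from males under 3 months of age, with no GnRH treatment in its labels. Both cultures had been given 100 nM testosterone and 5 ng/ml FSH for 12 h, so no culture without hormones entered the comparison. Each state was represented by 1 single-colour array, and the labels do not say how many animals went into each culture. No difference therefore has a replicate check, and none was tested. The question was how these genes differ between Sertoli cells at an age before spermatogenesis and at induced puberty.

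Sertoli cells line the seminiferous tubule and nurse the germ cells through proteins they secrete into the tubule and through the barrier they form. They divide before puberty, and as they mature they stop dividing and take up the secretory and barrier functions of the adult cell. Several of the genes here are known in rodents as products of that mature state.

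A signal below is the log2 of the scanner's processed intensity after subtraction of the 75th percentile (log2) over that array's gene spots, which was an intensity of 407 (pubertal) and 382 (infant). A difference is pubertal minus infant on that log2 scale, and ± is the error the scanner software assigned to the spots, an error of measurement on the array that leaves out the spread between cultures. In bright spots that error was nearly constant, 0.144 in log2 on each array for CLU, CITED1 and CEBPB P411296. Errors of several probes were combined as if independent. The SD between spots had a median of 0.09 (pubertal) and 0.08 (infant) over 78 probes printed more than once. All non-outlier spots of these 78 were well above background on both arrays, so dim probes are not covered. Of the 51538 gene spots, 54.9% and 54.8% were well above background on the pubertal and infant arrays, and none was saturated. The probes were designed on human transcripts, so levels of different genes are not comparable, and sums over marker genes below are weighted by the brightest probes. None of the 15 probes was an outlier spot or lay in a disturbed area of an array, and the median difference of the spots around each lay between -0.38 and 0.09.

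The 60-base probes of the genes whose values follow are given as they are on the array, 5′ to 3′ and in lower case with no base marked. The 7 shown were chosen after their values were seen: both DEFB119 probes, which gave different answers, and 1 probe each of 5 other genes detected on both arrays. Their genome positions are unmapped in the files, and the identity of each to the macaque transcript was not analysed here.
DEFB119 P312285: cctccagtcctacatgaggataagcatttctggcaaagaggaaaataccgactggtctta
DEFB119 P108107: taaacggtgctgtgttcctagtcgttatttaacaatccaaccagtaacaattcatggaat
PRND P143316: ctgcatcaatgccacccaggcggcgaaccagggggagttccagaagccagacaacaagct
CITED1 P73526: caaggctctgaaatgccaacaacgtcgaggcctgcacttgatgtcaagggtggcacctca
LCN2 P169437: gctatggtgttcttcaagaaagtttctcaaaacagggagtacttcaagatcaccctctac
CEBPB P143242: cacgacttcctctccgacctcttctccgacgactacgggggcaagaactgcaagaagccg
SHBG P207089: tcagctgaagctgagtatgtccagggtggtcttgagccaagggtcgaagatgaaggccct

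Of the 10 genes, 6 were detected on both arrays, 1 on the pubertal array alone and 3 on neither. Over all 21495 named genes the shares were 66.3% on both, 4.21% on the pubertal array alone, 3.13% on the infant array alone and 26.3% on neither. Among the 6 measured on both, PRND was higher by 2-fold or more in the pubertal culture, LCN2 and CEBPB were lower by 2-fold or more, and CLU, SHBG and CITED1 differed by less than 2-fold. Of all 14243 genes measured on both arrays, 7.32% were higher and 6.32% lower by 2-fold or more, together 13.6%. The median difference of the 6 genes was 0.51, against -0.06 over all genes measured on both, where 45.8% were positive. RNA of a culture dish was measured, so fewer cells of a type and less RNA per cell cannot be told apart.

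**Figure D1:**
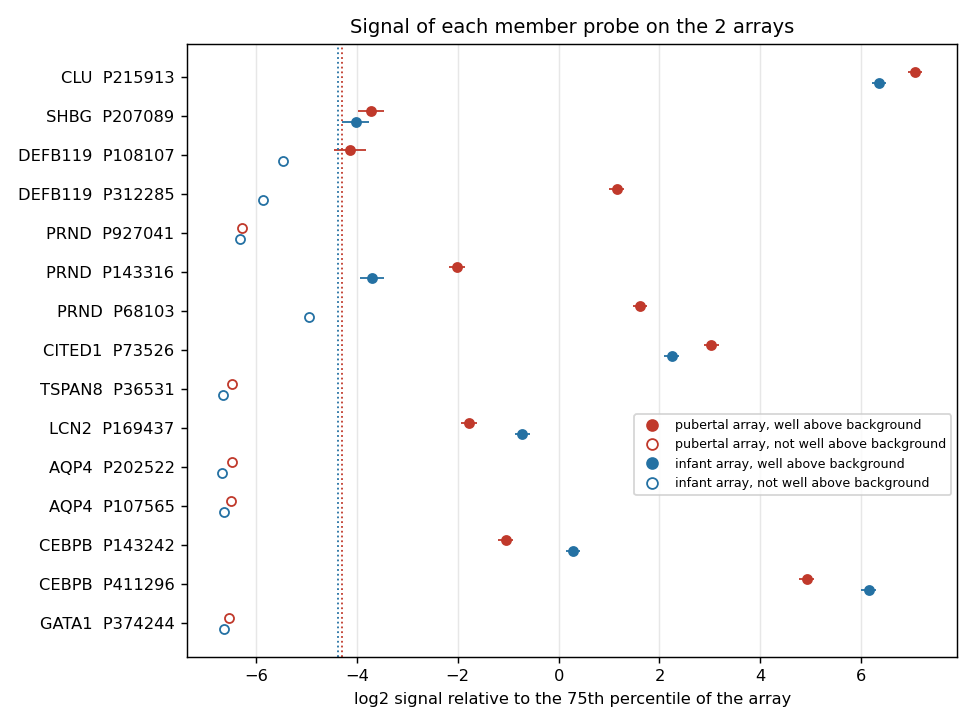
Signal of each of the 15 probes on the pubertal (red) and infant (blue) arrays, as log2 intensity after subtraction of the array's 75th percentile; bars are the scanner error, open circles are probes not well above background, and dotted lines mark the lowest detected signal on each array (-4.29 and -4.37). Both DEFB119 probes and PRND P68103 were open on the infant array alone, and TSPAN8, AQP4 and GATA1 lay below the lines on both.

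CLU encodes clusterin, an extracellular chaperone and a major secreted protein of mature Sertoli cells in rodents. Its single probe read an intensity of 54641 ± 5464 in pubertal cells and 31258 ± 3126 in infant cells. The signals were 7.07 and 6.35, a difference of 0.72 ± 0.20, or 1.64-fold higher in the pubertal culture. In the same direction 11.9% of the genes measured on both arrays differed by more. The difference passed 2-fold when the arrays were quantile normalised (1.04) and not under loess (0.95). With the spike-in scaling described below for LCN2, the CLU difference was 1.74.

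SHBG encodes the sex hormone binding globulin, which in rodents is the androgen-binding protein that Sertoli cells secrete. It was barely above background on both arrays, with processed intensities of 30.7 ± 5.47 (pubertal) and 23.5 ± 4.40 (infant). The mean pixel intensity was 88.4 against a local background of 56.8 in the first and 77.2 against 52.0 in the second. The difference of 0.30 ± 0.37 (1.23-fold) was smaller than its scanner error, so no difference was detectable at this signal in the setting used. With spike-in scaling the SHBG difference was 1.32.

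DEFB119 encodes a beta-defensin, a small secreted antimicrobial peptide. Its P312285 probe read 902 ± 90.3 in the pubertal culture and 6.59 ± 3.87 in the infant culture, where it was not well above background. Set against the lowest detected signal of the infant array, it was at least 45.9-fold higher in the pubertal culture in the setting used. Over all settings run this bound ranged from 12.1-fold to 92.9-fold. Of 1333 named probes detected on the pubertal array alone, 12 had a larger bound, and 50.9% of them passed 2-fold. The P108107 probe read 23 ± 5.08 and 8.71 ± 3.95, which gave a bound of only 1.17-fold. Both probes were detected in the pubertal culture alone, and the second lay near the lowest detected signal there. They share no run longer than 5 bases and are listed under different transcript accessions.

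The defensin genes that lie beside DEFB119 in the genome gave few detected signals. The group of clustered beta-defensins had 14 genes on the array, of which 2 were detected on both arrays, 2 on the pubertal array alone (DEFB119 and DEFB122) and 10 on neither. DEFB123 had a signal of 2.68 in the pubertal culture and -2.0 in the infant culture, a difference of 4.68 (25.6-fold). DEFB122 was detected in the pubertal culture only and by 1 of its 2 probes, with a bound of 4.34-fold. The 2 probes of DEFB124 differed in direction. One was measured on both arrays near background (intensities 23.4 and 29.9), a difference of -0.44, and the other was detected only in the pubertal culture (37.7 against 13.9), with a bound of 1.92-fold. In the macaque gene order the sequence of genes is DEFB125, DEFB115, DEFB116, DEFB118, DEFB119, DEFB121, DEFB122, DEFB123 and DEFB124, and the first 4 of these and DEFB121 stayed at background in both cultures. DEFB119 and DEFB123 thus had higher pubertal signals, and DEFB122 and DEFB124 did so by 1 of 2 probes each.

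PRND encodes doppel, a prion-like protein of the cell surface that is needed for male fertility in mice. Its 3 probes gave different readings. The P143316 probe was well above background on both arrays, at 101 ± 11.0 in the pubertal culture and 29.5 ± 4.93 in the infant culture, a difference of 1.68 ± 0.29 or 3.22-fold. The P68103 probe read 1245 ± 125 and 12.4 ± 4.15, the latter not well above background. In the setting used it was thus at least 63.3-fold higher, and 8 of the 1333 probes had a larger bound. Over all settings run its bound ranged from 16.1-fold to 128-fold. The P927041 probe was undetected in both cultures (5.23 and 4.77), with pixel means of 61.0 against a background of 58.8 (pubertal) and 49.6 against 52.3 (infant), and 21.7% of its bases are G or C.

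All probes that were detected put PRND higher in the pubertal culture, and 2.63% of the genes measured on both arrays had a larger difference in that direction than the P143316 probe. The size depended on the probe. Of 754 genes with a probe measured on both arrays and another on 1 array, 52 had a bound more than 4-fold past the measured mean, and PRND's gap of 4.30 on the log2 scale was matched or passed by 6 genes, itself included. The P68103 probe has stop codons in all 3 reading frames of the printed strand while P143316 has none in any, and the longest run they share is 4 bases. With normexp background correction, which adds an offset of 50 to every intensity, the PRND difference was 0.74. PRNP, the prion protein gene next to PRND in the macaque order, had signals of 6.89 and 6.79, a difference of 0.10.

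**Figure D2:**
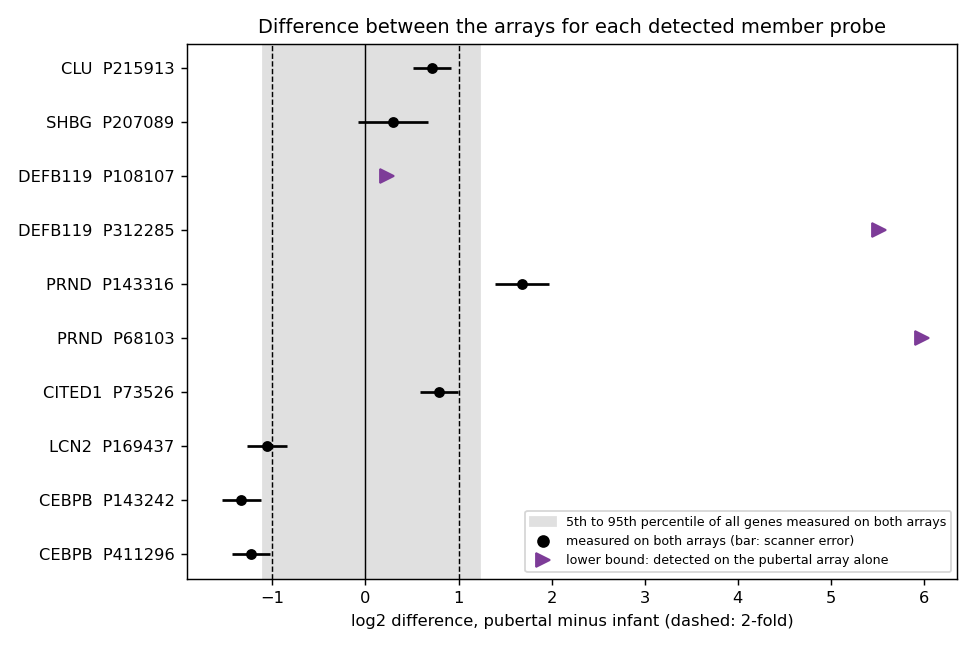
Difference between the arrays, pubertal minus infant in log2 units, for the 10 probes detected on at least 1 array; points with scanner error bars were measured on both arrays, triangles are lower bounds for probes detected on the pubertal array alone, and the shaded band spans the 5th to 95th percentile of all genes measured on both (-1.10 to 1.23). Both CEBPB probes lay below the band's lower edge, LCN2 was just inside it, and PRND P143316 was above its upper edge.

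LCN2 encodes lipocalin 2, an iron-siderophore binding protein that many tissues secrete in inflammation and that neutrophils store. It read 119 ± 12.8 (pubertal) and 232 ± 23.6 (infant), a difference of -1.06 ± 0.21, or 2.08-fold lower in the pubertal culture. In the same direction 5.53% of the genes differed by more. The value lay at the 2-fold line and was -0.78 with normexp background correction and its offset of 50. When the arrays were scaled on 274 spike-in spots, LCN2 differed by -0.04. This alternative was chosen after seeing the data and moved the median of all genes by 1.02. Whether both arrays received equal spike-in amounts is not stated, so the absolute level of LCN2 stayed undecided. That scaling adds the same 1.02 to every difference, so differences between -1.02 and 0 named below turn positive under it.

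Of the 18 lipocalins on the array, LCN2 included, 6 were measured on both arrays, and LCN2 alone passed 2-fold. Their median difference was 0.12. LCN8 had a difference of -0.79, and PTGDS, the prostaglandin D synthase that Sertoli cells also secrete, of 0.35. RBP4, the retinol carrier, was detected only in the pubertal culture (bound 2.35-fold) and OBP2B only in the infant culture (bound 1.36-fold).

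CEBPB is a leucine-zipper transcription factor that FSH and cAMP induce in rat Sertoli cells and that also drives acute-phase genes. Its P143242 probe read 197 ± 20.2 in the pubertal culture and 466 ± 46.8 in the infant culture, a difference of -1.33 ± 0.21. Its P411296 probe read 12299 ± 1230 and 27093 ± 2709, a difference of -1.23 ± 0.20. The 2 probes thus agreed on a lower pubertal level, 2.43-fold as a mean (-1.28 ± 0.15), and their SD of 0.07 was below the median of 0.21 over 4767 genes with several measured probes. A larger negative difference was found in 3.36% of genes. With spike-in scaling the difference was -0.26, and the absolute level of CEBPB stayed undecided, as for LCN2.

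All 7 C/EBP genes were measured on both arrays, 3 of them lower in the pubertal culture past 2-fold and none higher, and their median was -0.28. With spike-in scaling 1 was lower and 1 higher past 2-fold. CEBPE, known from granulocytes, had the largest difference at -2.18, and CEBPD, which is induced with CEBPB in inflammation, had -1.35.

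Genes that inflammatory signals induce together with LCN2 form a second list, of 23 genes that includes LCN2 and CEBPB. Of these, 15 were measured on both arrays, 8 were lower in the pubertal culture past 2-fold and none was higher. The 8 include LCN2 and CEBPB. SAA2, also among them, lay at the 2-fold line, with intensities of 30.7 and 57.8 and 1 of its 6 probes measured. The count past 2-fold was 6 with normexp and 6 with the 75th percentile over detected probes. The median of the 15 was -1.0, the value of SAA2. With spike-in scaling 3 were lower and 1 higher past 2-fold, and the median was 0.02. PTX3, a pentraxin of innate immunity, had a difference of -3.18, IL6 of -2.48 and the mitochondrial superoxide dismutase SOD2 of -2.19. The copper carrier CP went the other way, detected only in the pubertal culture with a bound of 3.34-fold. The NF-kB inhibitor TNFAIP3 was detected only in the infant culture, by 1 of its 2 probes, with a bound of 1.85-fold. All 11 neutrophil markers on the array were not well above background on either, with summed levels of 0.15 and 0.19 (linear, in units of the 75th percentile) in the pubertal and infant cultures.

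CITED1 encodes a transcriptional co-activator that binds CBP and p300. Its probe read 3318 ± 332 in the pubertal culture and 1808 ± 181 in the infant culture, a difference of 0.79 ± 0.20 or 1.73-fold. A larger positive difference was found in 1498 of the 14243 genes. The related CITED4 had a difference of -1.63 and CITED2 of -0.79, so CITED1 alone among the 3 genes of the family was higher in the pubertal culture. With spike-in scaling the CITED1 difference was 1.81, and CITED2 turned positive.

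GATA1, TSPAN8 and AQP4 stayed at background in both cultures, and no level could be compared. GATA1, a zinc-finger factor of blood cell development, is also known from mouse Sertoli cells. Its probe read 4.38 and 3.84, with a mean pixel intensity of 59.3 against a background of 57.3 (pubertal) and 55.1 against 59.0 (infant). TSPAN8, a tetraspanin membrane protein, read 4.56 and 3.79, with pixel means of 51.6 and 48.2 below backgrounds of 55.3 and 55.1. Both probes of AQP4, a water channel best known from astrocytes, read between 3.75 and 4.55.

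Other members of those families were measured. Of the 9 GATA and FOG factors, 6 were measured on both arrays, 1 was at least 2-fold lower and none higher, with a median of 0.03. GATA5 had a difference of -1.08, ZFPM2 of -0.40 and GATA6 of 0.40. Of the 14 aquaporins, 8 were measured on both, with 1 higher and 1 lower past 2-fold and a median of 0.32. AQP1 had a difference of 2.08, AQP3 of -1.51 and AQP5 of 0.75, whose 2 probes gave 0.13 and 1.38. Of 32 tetraspanins, 21 were measured on both, 3 higher and 3 lower past 2-fold, with a median of -0.22. TSPAN15 had a difference of 2.61, CD53, a leukocyte tetraspanin with 1 spot in a disturbed area, of 1.88, and TSPAN13 of -1.62. TSPAN2 was detected only in the pubertal culture and by 1 of its 2 probes, with a bound of 13.1-fold.

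**Figure D3:**
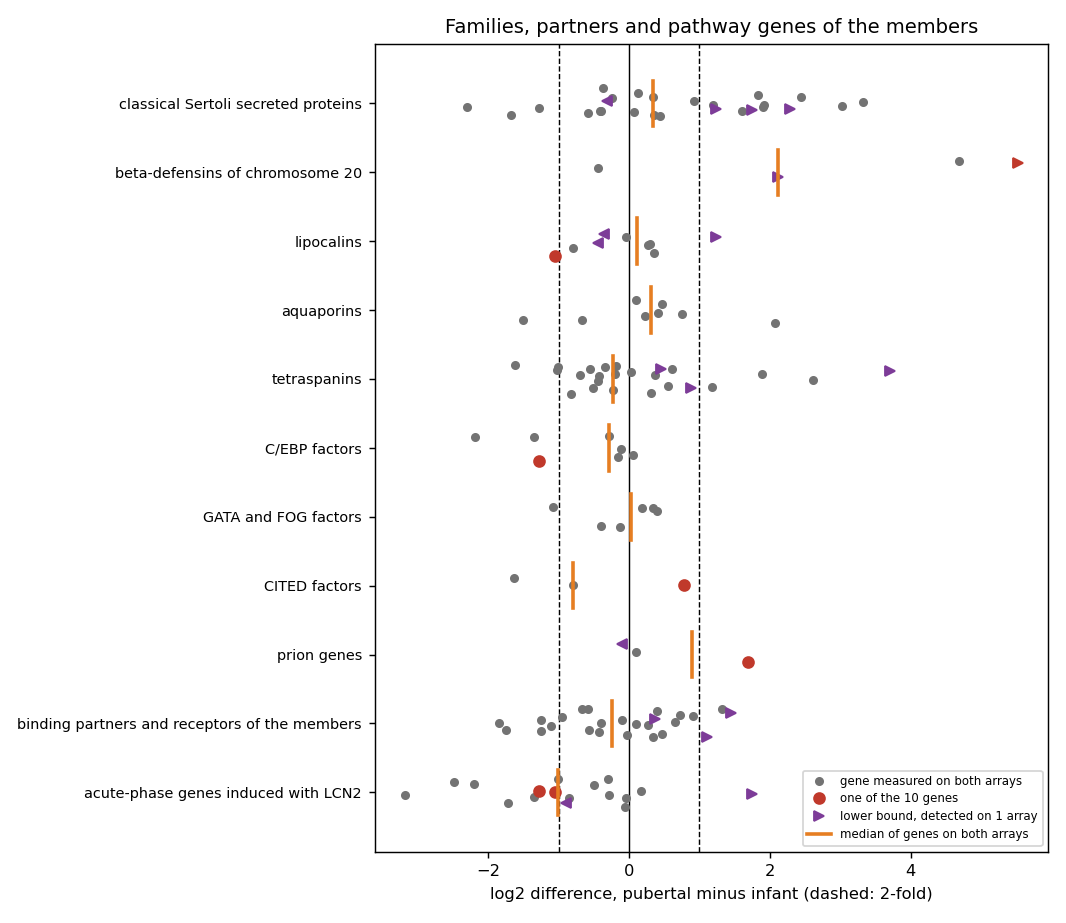
Difference between the arrays, pubertal minus infant in log2 units, for genes of the families, partners and pathways of the 10 genes; red points are the 10 genes themselves, grey points other genes measured on both arrays, triangles lower bounds and orange bars the median of each row. The acute-phase row has its median at -1.0, with PTX3 at -3.18, and the defensin row holds DEFB123 at 4.68.

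A further list, drawn up as secreted products of Sertoli cells, held 30 genes other than the 10, not all established as such. On both arrays 22 were measured, of which 8 were higher and 3 lower past 2-fold in the pubertal culture, and their median was 0.34. Transferrin TF, the iron carrier, had a difference of 3.32, the cystatin CST9L of 3.02 and the protease inhibitor SERPINE2 of 2.43. The cystatin CST9 was detected only in the pubertal culture, with a bound of 4.89-fold, as was CP. Receptors and partners of the 10 proteins, a list of 28 genes on the array, had 22 measured on both, 1 higher and 5 lower past 2-fold, and a median of -0.25. CD44 had a difference of -1.85, MMP9, which forms a complex with lipocalin 2, of -1.75, and the syntrophin SNTB1 of 1.32. The 2 probes of SNTB1 gave 0.79 and 1.85. SRD5A2, the enzyme that makes dihydrotestosterone, and the factor TFAP2C were detected only in the pubertal culture, with bounds of 2.74-fold and 2.15-fold.

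**Figure D4:**
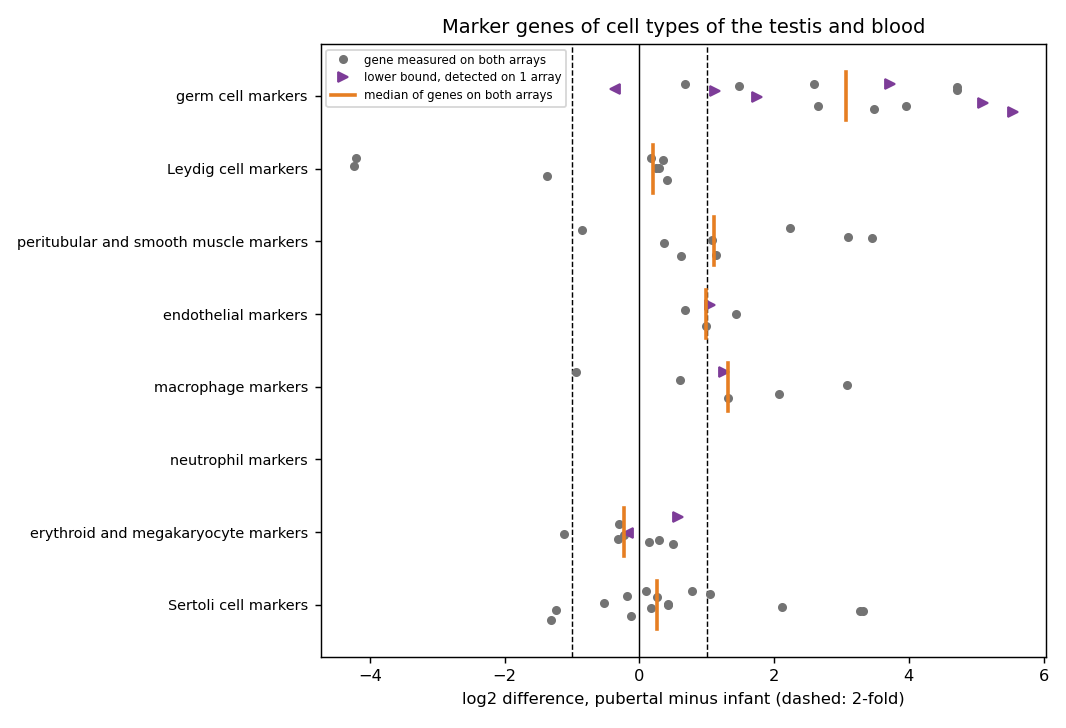
Difference between the arrays, pubertal minus infant in log2 units, for marker genes of cell types of the testis and blood; points are genes measured on both arrays, triangles lower bounds and orange bars the median of each row. The germ cell row has a median of 3.07 and the smooth muscle row 1.11.

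Markers of Sertoli cells were detected on both arrays, all 15 of them, 4 higher and 2 lower past 2-fold in the pubertal culture with a median of 0.26. Their levels summed to 1168 (pubertal) and 1438 (infant) in units of the 75th percentile, and without the keratin gene KRT18 to 837 and 617. Markers of other cells differed between the cultures. Of 22 germ cell markers, 13 were detected in the pubertal and 9 in the infant culture, with summed levels of 18.7 and 2.5, and 7 of the 8 measured in both were higher past 2-fold (median 3.07). LDHC, the germ cell lactate dehydrogenase, had a signal of 1.62 in the pubertal culture and -0.97 in the infant culture. All 8 smooth muscle markers were detected in both cultures, 5 higher past 2-fold in the pubertal one, and they summed to 223 and 139. Of 9 Leydig cell markers 8 were detected in both, 3 lower past 2-fold in the pubertal culture and the other 5 higher by less than 2-fold, with a median of 0.21. The 3 lower ones were STAR (-4.24), CYP17A1 (-4.21) and CYP11A1 (-1.37), and the 5 higher ones lay between 0.17 and 0.41. The 9 Leydig cell markers summed to 122 and 216, and without the steroidogenic gene STAR to 117 and 115. With spike-in scaling 5 Leydig cell markers were higher and 2 lower past 2-fold. Of 9 macrophage markers 6 were detected in the pubertal and 5 in the infant culture, 3 higher past 2-fold. They summed to 4.73 and 1.11, and without CD163 to 1.58 and 0.74. Of 8 endothelial markers 4 and 3 were detected, with sums of 2.25 and 0.97. Of 15 erythroid and megakaryocyte markers 8 were detected in each culture, with sums of 20.1 and 25.0. Without GP9 the sums were 1.309 and 1.595. HBA1 and SLC4A1 were detected in both cultures, with differences of -1.12 and 0.15, and the erythroid factor KLF1 was at background in both. Most germ cell, smooth muscle, macrophage and endothelial markers measured in both cultures were thus higher in the pubertal one. These were all 8 germ cell, 7 of 8 smooth muscle, 4 of 5 macrophage and all 3 endothelial markers. Leydig cell markers went both ways. The part of these cell types in the results was not tested.

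**Figure D5:**
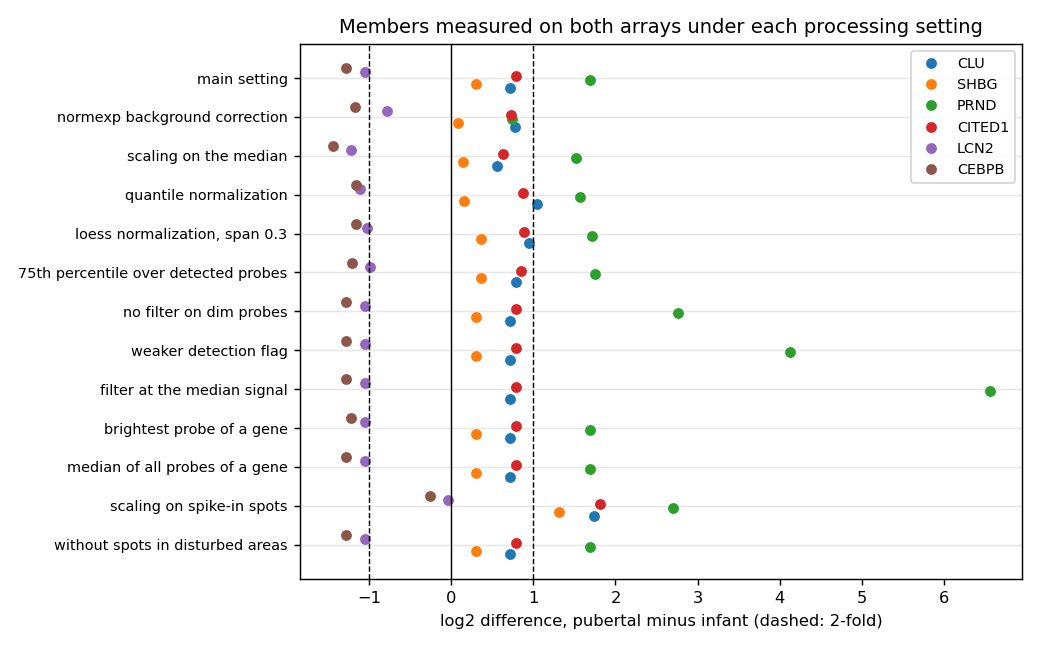
Difference between the arrays, pubertal minus infant in log2 units, of the 6 genes measured on both arrays under each processing setting; each colour is a gene and dashed lines mark 2-fold. PRND moves between 0.74 and 6.56 with the setting, which also changes the probes that stand for it. The value of 6.56 is that of P68103 alone. Spike-in scaling shifts all 6 genes upward.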

How the data were processed

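Per the file headers, the authors deposited single-colour Agilent scanner output (Agilent Feature Extraction 10.5.1.1) with processed signals as intensity, a count of pixels per spot, and flags for background, saturation and outliers; the array carries human probes. From these, log2 of the processed intensity was taken minus the 75th percentile over non-outlier gene spots of the array, spots of a probe were averaged, and a probe counted as detected if at least 50% of its spots were well above background. Gene values average the probes that both arrays detected. A bound sets the bright signal against the higher of the other array's lowest detected signal and the probe's own signal there, and takes no account of spot error. Each group had 1 array, so no test was run, and the thresholds of 2-fold are descriptive. The number of arrays limits the precision. Python 3.11.15, pandas 2.3.3, numpy 2.4.6, statsmodels 0.14.6, R 4.3.3 and limma 3.58.1 were used, and the steps were tested on simulated data. The genes and lists were chosen with earlier results of these data known. Named in the text are all 10 genes with every probe, for each family and pathway list up to 3 genes with the largest difference and 2 with the largest bound, and for each cell type list genes among the 3 brightest on each array. KLF1, SAA2 and CYP17A1 fall outside this rule and were chosen after their values were seen. Of the 273 names in the 19 lists, 6 were not on the array. Names and gene order came from the macaque RefSeq gene table of assembly T2T-MMU8v2.0.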

Additional observations from a re-analysis of the deposited data

How the results depend on the processing

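No paired analysis was possible because each group had 1 array, and leaving out a replicate was not possible for the same reason. No difference of the 6 genes changed sign under the alternatives run. With normexp background correction PRND was 0.74 and LCN2 -0.78, with 0 of the genes at least 2-fold higher and 1 lower, against 1 and 2 in the setting used. This correction adds an offset of 50 to every intensity, which makes differences of dim probes smaller. Scaling on the median gave CEBPB -1.44. Quantile normalisation gave CLU 1.04 and 2 genes higher, and loess gave CLU 0.95. The 75th percentile over detected probes left 1 gene lower. PRND was 2.76 with no filter on dim probes, 4.12 with the weaker detection flag and 6.56 with a filter at the median signal, which drops the detection requirement and leaves SHBG without a value. These PRND values take in P68103, which was not well above background on the infant array, and 6.56 is the value of that probe alone. Each of these 3 settings, and the median of all probes, gave 2 genes higher. Spike-in scaling, added after seeing the data, gave CLU 1.74, SHBG 1.32, PRND 2.70, CITED1 1.81, LCN2 -0.038 and CEBPB -0.26, with 4 genes higher and 0 lower, and the partner list went from 1 higher and 5 lower to 9 and 0. A threshold of 1.5-fold gave 3 genes higher, and 4-fold gave 0 higher, 0 lower and 26 instead of 63 genes of the lists. Over all genes, 1042 were higher and 900 lower (53.7% higher), against 553 and 568 with normexp, 782 and 1311 (37.4%) with median scaling, 2081 and 1485 with no filter, 1710 and 1363 with the weaker flag, 2056 and 1484 with the median of all probes, and 6734 and 119 (98.3%) with spike-in scaling. The bound for DEFB119 P312285 ranged from 12.1-fold to 92.9-fold and for PRND P68103 from 16.1-fold to 128-fold, and the weaker flag made them measured differences of 129-fold and 94.3-fold. Of 240 counts of single lists, 38 moved by over 1.5 times. Beyond the probes that stood for PRND, the cause of each change was not tested.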

Other observations

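Around PRND in the macaque gene order, RASSF2, the neighbour on the side away from PRNP, had a difference of 2.19, and beside LCN2 the prostaglandin E synthase gene PTGES2 had -1.19, both chosen after their values were seen. Among the lists the angiotensinogen gene AGT, a secreted protein, had a difference of -2.30, and haptoglobin HP of -1.72, both also chosen after their values were seen.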
